A study of Mus musculus with 12 samples.

Results

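*Rala* and *Ralb* encode the Ral GTPases, and both were among the 770 genes of the NanoString nCounter Neuroinflammation panel. They were taken by name, as every row called *Rala* or *Ralb*, which gave 2 genes (RefSeq gene identifiers 56044 and 64143) in microglia of C57B6 mice. The labels call mice and cells untreated, whereas the study's methods and legend describe tamoxifen, given to adult mice shortly before use and to aged mice long before it, and a gate on eYFP, which marked *Cx3cr1*-expressing cells through an inducible Cre line. The genotype of each sample is not in the labels, and age and the time since tamoxifen cannot be told apart between aged and adult samples. The adult group held microglia from the CNS of mice of 12 to 20 weeks taken without regard to ERK1/2 phosphorylation (samples 1, 4 and 10). Microglia from the CNS of aged mice, over 80 weeks, were sorted by phosphorylation of ERK1/2 at Thr202/Thyr204 into P-ERK1/2 Low (samples 3, 6, 9 and 12) and P-ERK1/2 High (samples 2, 5, 7 and 8). Cells were taken with CD11b beads, fixed and permeabilized. The aged groups were parted on a cell sorter, and whether adult samples also passed through it is not settled by the sources used here. The aged High and Low fractions may come from the same mice, which the labels do not say. Each sample pooled the CNS of a male and a female, so p-values describe the spread between such pools. Adult sample 11 was marked by the authors as excluded for poor quality and is given apart from the adult group.

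Ral proteins are small GTPases of the Ras superfamily, molecular switches that are active when bound to GTP. Some of their exchange factors bind active Ras, so Ral can be one arm of signaling below Ras, beside the arm that runs through Raf and MEK to ERK1/2. Active Ral binds the exocyst, the complex that tethers vesicles to membranes, and Ral and exocyst proteins also take part in the assembly of the machinery that starts autophagosomes. Microglia, the resident phagocytes of the CNS, depend on such membrane traffic for uptake and secretion. The panel measured RNA, and neither Ral protein nor its GTP-bound form was measured here.

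The 2 genes lie on different chromosomes, and the bases before their start sites are shown because the genes differed in their response to the P-ERK1/2 sort. The sequences are RefSeq's on GRCm38.p6, written 5′ to 3′ in the direction of the gene, which is the minus strand for both. The 250 bases before the *Rala* start are chr13:17944218-17944467, and those before the *Ralb* start are chr1:119504783-119505032. Capitals mark letters that match a searched motif on either strand.
Rala promoter: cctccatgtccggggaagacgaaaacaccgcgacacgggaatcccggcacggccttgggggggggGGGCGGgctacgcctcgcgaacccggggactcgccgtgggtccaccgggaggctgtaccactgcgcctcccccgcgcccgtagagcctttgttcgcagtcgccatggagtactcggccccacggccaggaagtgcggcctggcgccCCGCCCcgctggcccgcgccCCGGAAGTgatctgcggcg
Ralb promoter: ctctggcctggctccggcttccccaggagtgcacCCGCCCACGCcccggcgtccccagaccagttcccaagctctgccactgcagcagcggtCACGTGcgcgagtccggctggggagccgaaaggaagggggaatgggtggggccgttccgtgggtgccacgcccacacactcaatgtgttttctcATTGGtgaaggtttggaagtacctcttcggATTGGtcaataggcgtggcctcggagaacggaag
The searched windows also held the 50 bases after the start, and were rich in G and C, at 73.7% for *Rala* and 65.3% for *Ralb* against a median of 52.7% over all promoters. *Rala* held the ETS motif CCGGAAGT once, 19 to 12 bases before the start, a motif found in 3.89% of 32851 promoter windows. *Ralb* did not hold these letters. *Ralb* held the E-box CACGTG once (7.15% of windows), CCAAT at 2 places (37.4%) and the EGR1 motif GCGTGGGCG once (0.612%), the last overlapping a GC box. The GC box GGGCGG, in 35.7% of windows, occurred at 2 places in each gene, 1 of those in *Ralb* after the start. Neither window held AP-1 (TGACTCA, 5.2%), CRE (TGACGTCA, 1.79%) or TATAAA (13.6%). These matches describe letters only, and no binding was measured.

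Depth differed by group, with totals over the panel's genes of 650965 to 1539936 counts for P-ERK1/2 High, 123798 to 157209 for P-ERK1/2 Low, 137980 to 326575 for the adult group and 1464449 for sample 11. The geometric mean of the positive controls was 954 to 1460 in the 11 samples of the groups and 286 in sample 11. Of 10 microglia markers, 10 were above background in all P-ERK1/2 High samples, 7 in all adult samples and 4 in all P-ERK1/2 Low samples, where *P2ry12* and *Gpr34* never exceeded background. The deposited values are normalized to 13 housekeeping genes, and a gene was above background when its count exceeded the mean plus 2 SD of 8 negative controls. Among all genes of the panel, 589 to 673 exceeded background per P-ERK1/2 High sample. The numbers were 417 to 560 per adult sample and 410 to 484 per P-ERK1/2 Low sample. Marker counts here and below are to be read beside these numbers. *Rala* and *Ralb* were above background in all 12 samples. Fewer cells of a type and less RNA per cell cannot be told apart in such bulk samples.

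*Rala* stood in 2 ranges that did not meet. Its normalized value was 2306.75, 2718.96, 2092.01 and 2558.04 in P-ERK1/2 High samples 2, 5, 7 and 8. In P-ERK1/2 Low samples 3, 6, 9 and 12 it was 335.44, 343.57, 345.10 and 410.22, and in adult samples 1, 4 and 10 it was 281.34, 371.47 and 415.09. Every P-ERK1/2 High sample thus lay above every P-ERK1/2 Low and adult sample, while the range of P-ERK1/2 Low lay within that of the adult group. Mean values were 2419 ± 276 (SD, n = 4) for P-ERK1/2 High, 359 ± 34.7 (SD, n = 4) for P-ERK1/2 Low and 356 ± 68.2 (SD, n = 3) for adult microglia.

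*Ralb* had overlapping ranges in P-ERK1/2 High and both other groups as deposited. Its normalized value was 290.93, 503.19, 315.54 and 392.76 in P-ERK1/2 High samples 2, 5, 7 and 8. It was 426.92, 487.3, 422.68 and 467.66 in P-ERK1/2 Low samples 3, 6, 9 and 12 and 363.02, 358.67 and 402.74 in adult samples 1, 4 and 10. The lowest and the highest value both belonged to P-ERK1/2 High, whose range covered the other groups. Mean values were 376 ± 95.5 (SD, n = 4) for P-ERK1/2 High, 451 ± 31.5 (SD, n = 4) for P-ERK1/2 Low and 375 ± 24.3 (SD, n = 3) for adult microglia, so the coefficient of variation was 25.4% in P-ERK1/2 High against 6.98% and 6.48%. The order of the *Ralb* means was P-ERK1/2 Low, P-ERK1/2 High, adult, and no neighbours in it differed by limma.

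**Figure D1:**
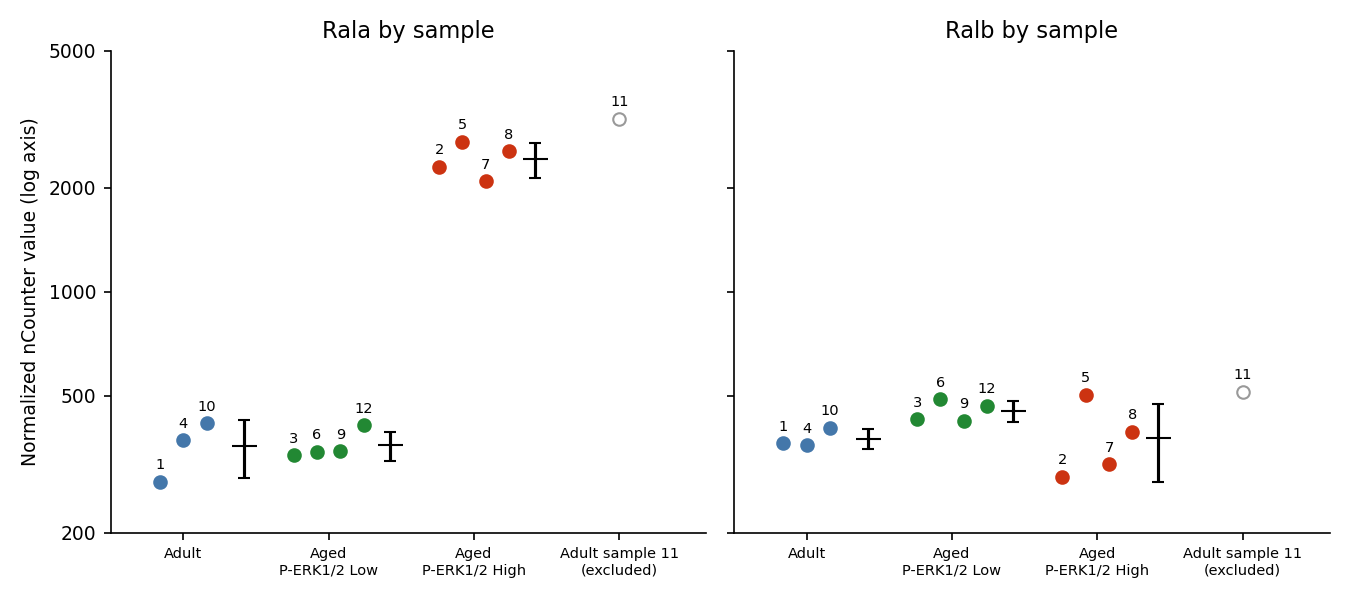
Normalized nCounter value of *Rala* (left) and *Ralb* (right) in each sample on a log axis, with sample numbers at the points and group mean ± SD in black. The 4 P-ERK1/2 High samples lie between 2092.01 and 2718.96 for *Rala* and between 290.93 and 503.19 for *Ralb*, and the open circle is adult sample 11.

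Dividing each value by its sample's factor gave the counts behind it. *Rala* rested on 1863 to 3804 counts for P-ERK1/2 High, 98 to 129 for P-ERK1/2 Low and 124 to 319 for the adult samples. *Ralb* rested on 239 to 704, 114 to 158 and 160 to 308 counts. The 95% Poisson intervals of the normalized value, which cover counting error only, overlapped for *Rala* among all P-ERK1/2 Low samples, for example 279 to 419 in sample 6 and 334 to 499 in sample 12. In P-ERK1/2 High, those of *Rala* in sample 7 (1998 to 2189) and sample 5 (2633 to 2807) did not overlap, nor did those of *Ralb* in sample 2 (255 to 330) and sample 5 (467 to 542). As a share of all panel counts, which does not use the housekeeping factors, *Rala* took 24.7 to 28.6 of each 10000 counts for P-ERK1/2 High, 7.50 to 8.21 for P-ERK1/2 Low and 8.79 to 12.2 for the adult samples. *Ralb* on that scale took 3.33 to 4.57, 9.21 to 10.6 and 9.43 to 11.8, with P-ERK1/2 High below both other groups.

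The first comparison, P-ERK1/2 High against P-ERK1/2 Low, set aged microglia that differed in the ERK1/2 sort against each other. *Rala* rose 6.72-fold in P-ERK1/2 High, by 2.75 on the log2 scale (SE 0.20, adjusted p = 4.9e-06 by limma), higher in 4 of 4 samples than in any P-ERK1/2 Low sample. A call needed an unadjusted p under 0.01 and a change of more than 1 log2 unit, and 37.8% of the 770 genes passed, 28.2% as higher and 9.61% as lower. In 31.3% of the genes all P-ERK1/2 High samples lay above all P-ERK1/2 Low samples, as they did for *Rala*. *Rala* ranked 15 by log2 fold change, above 98.1% of the genes. The study had singled it out on these same samples, so its rank and p are not independent evidence. *Ralb* was not called, at a log2 fold change of -0.29 (SE 0.23, limma adjusted p = 0.29) with overlapping groups, and its call depended on the scaling. It was called lower at -1.32 with samples brought to the same total and higher at 1.38 unscaled and 1.69 with the positive controls, and its sign turned under 3 of 7 other scalings. *Rala* was called under all 7, from 1.72 when samples were brought to the same total to 4.73 with scaling by the positive controls.

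Total counts, and markers of other cells, moved with *Rala*. The summed value of 6 astrocyte markers was 1412 to 2143 for P-ERK1/2 High, 581 to 833 for P-ERK1/2 Low and 467 to 677 for the adult group. It was carried by *Gja1* (median 926 for P-ERK1/2 High against 337 for P-ERK1/2 Low) and *Sox9* (544 against 134), while *Slc1a3* (31.0 against 56.6) and *S100b* (33.5 against 49.95), at or below background in P-ERK1/2 Low, had lower medians for P-ERK1/2 High. The sum of 6 endothelial markers was 622 to 1257, 207 to 312 and 286 to 413. That of 9 T and NK cell markers was 299 to 1094, 161 to 252 and 143 to 301, and none of these 9 exceeded background in P-ERK1/2 Low. The T and NK sum was carried by *Cd3e* (median 257 against 21.4), while *Cd8a* and *Cd6* exceeded background in no sample of the groups. Of the astrocyte markers 4 of 6, and of the endothelial markers 5 of 6, stayed at or below background throughout P-ERK1/2 Low. Sums of 8 oligodendrocyte markers (267 to 408, 320 to 452 and 312 to 492) overlapped between all groups. Those of 10 microglia markers (7515 to 11042, 9141 to 10391 and 7124 to 8168) overlapped between P-ERK1/2 High and each other group. The neutrophil sum over 5 genes was 242 to 684, 332 to 474 and 645 to 1015, that of 7 neuronal genes 259 to 450, 206 to 266 and 203 to 250, that of 4 B cell genes 146 to 321, 94.7 to 147 and 59.4 to 143, and that of 5 genes of border macrophages and monocytes 208 to 264, 152 to 210 and 153 to 216. All 4 B cell genes, 6 of 7 neuronal genes and 4 of 5 genes of border macrophages and monocytes exceeded background in no P-ERK1/2 Low sample. The study's methods name, for the sorted aged cells, a gate on intermediate CD45, YFP and absence of Ly6G, which would leave out T cells, neutrophils and cells outside the myeloid lineage. The part of total counts and of these markers in the *Rala* result was not tested.

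The second comparison, P-ERK1/2 Low against adult, set aged microglia with low ERK1/2 phosphorylation against younger microglia. Neither Ral gene was called, where 10.8% of all genes were, 8.05% as higher and 2.73% as lower. *Rala* had a log2 fold change of 0.02 (SE 0.17, limma adjusted p = 0.92), with overlapping groups and a sign that turned under 7 of 7 other scalings, to -0.82 at the lowest. *Ralb* had 0.27 (SE 0.13, limma adjusted p = 0.18), and all 4 P-ERK1/2 Low samples lay above all 3 adult samples. Such a gap between groups in that direction was seen for 26.1% of the genes, and the *Ralb* value turned to -0.12, -0.58 and -0.55 when samples were brought to the same total, left unscaled or scaled by the positive controls.

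The third comparison, P-ERK1/2 High against adult, uses the same P-ERK1/2 High samples as the first and the same adult samples as the second. *Rala* rose 6.83-fold, a log2 fold change of 2.77 (SE 0.25, limma adjusted p = 2.9e-05), where 36.9% of all genes were called, 29.2% as higher and 7.66% as lower. Its groups did not overlap, which held in this direction for 35.1% of the genes. It ranked 25 among the 770 genes. *Ralb* was not called, at -0.03 (SE 0.26, limma adjusted p = 0.93), and took either sign under other scalings (-1.44 to 1.14). With sample 11 counted as an adult sample, *Rala* came to 1.98 and was not called.

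**Figure D2:**
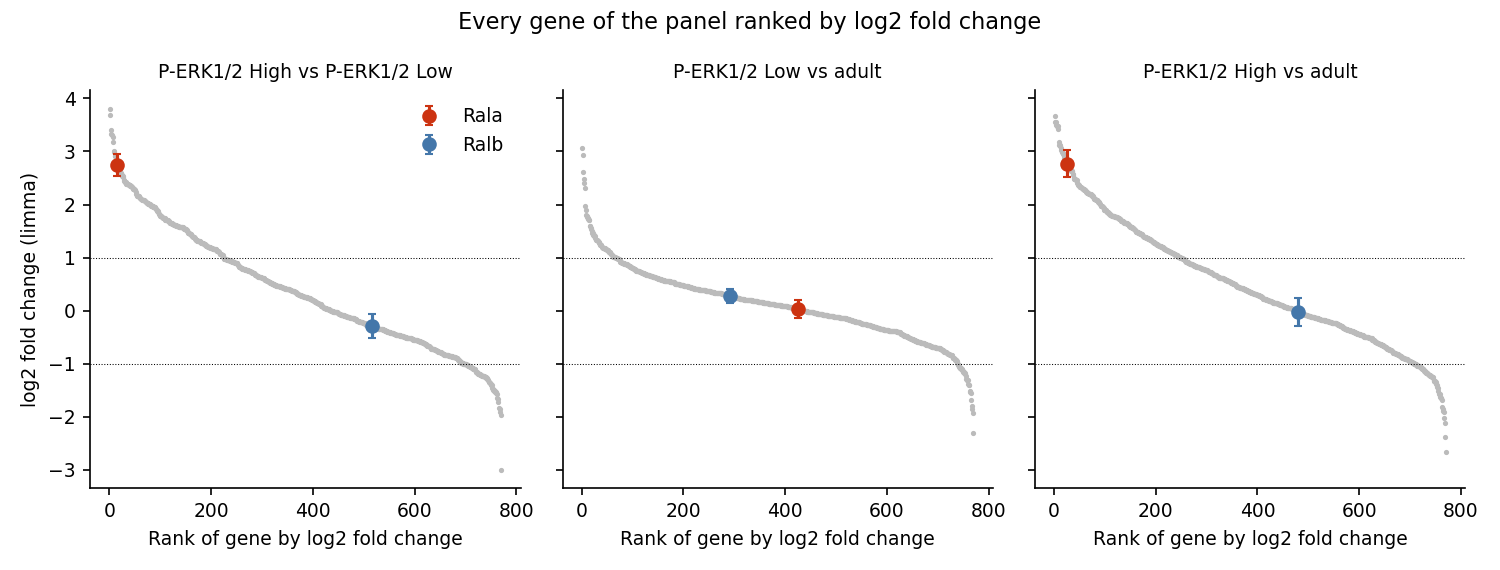
Log2 fold change of each of the 770 genes (grey) against its rank in the 3 comparisons, with *Rala* (red) and *Ralb* (blue) drawn with their SE and dotted lines at a log2 fold change of 1 and -1. From left to right, *Rala* ranks 15, 426 and 25, and *Ralb* ranks 516, 292 and 479.

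How far a gene moved depended on the scaling, since the median change over the panel between the aged groups was 0.26 log2 units as deposited, 1.02 with the 6 most stable housekeeping genes and 2.15 with the positive controls, but -0.76 with the same total and -0.10 with quantile normalization. Relative to that median, *Rala* stood 2.49 higher as deposited and *Ralb* 0.55 lower (-0.55). With the negative-control background subtracted, where the median was 1.00, the distances were 1.90 for *Rala* and -1.24 for *Ralb*.

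**Figure D3:**
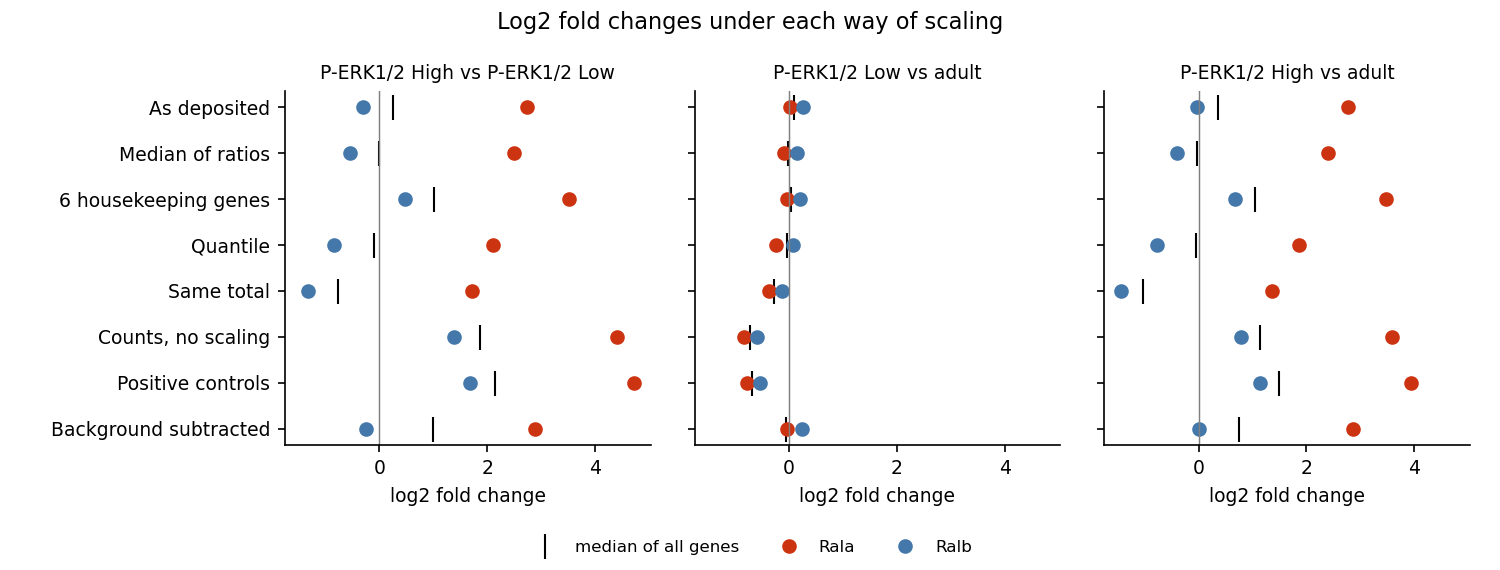
Log2 fold change of *Rala* (red), *Ralb* (blue) and the median of all genes (black bar) under each way of scaling, one row per scaling, in the 3 comparisons on a shared axis. In the comparisons of P-ERK1/2 High, *Rala* lies above 1 in every row and *Ralb* lies on either side of 0.

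Both genes of a sample share its scaling factor, so the ratio of *Rala* to *Ralb* does not depend on it. Each gene is read by its own probe, so this ratio is followed between samples and is not a ratio of molecules. The log2 ratio was 2.98, 2.43, 2.73 and 2.70 in P-ERK1/2 High samples 2, 5, 7 and 8. It was -0.35, -0.50, -0.29 and -0.19 in P-ERK1/2 Low samples 3, 6, 9 and 12 and -0.37, 0.05 and 0.04 in adult samples 1, 4 and 10. The ratio was high in all P-ERK1/2 High samples and near or below 0 in all others, with group means of 2.71 ± 0.23 (SD, n = 4), -0.33 ± 0.13 (SD, n = 4) and -0.09 ± 0.24 (SD, n = 3). Between the aged groups it differed by 3.04 log2 units (SE 0.13), or 8.24-fold, higher in 4 of 4 samples (exact permutation test, two-sided, p = 0.0286, which is the smallest that 4 against 4 allow, and 0.0857 after Benjamini-Hochberg adjustment over 3 comparisons). Between P-ERK1/2 High and adult it differed by 2.80 (SE 0.18; exact permutation p = 0.0571, the smallest that 4 against 3 allow, adjusted 0.0857). Between P-ERK1/2 Low and adult the difference was -0.24 (SE 0.15; exact permutation p = 0.229, adjusted 0.229). At these sample sizes no comparison of the ratio could pass 0.05 after adjustment.

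**Figure D4:**
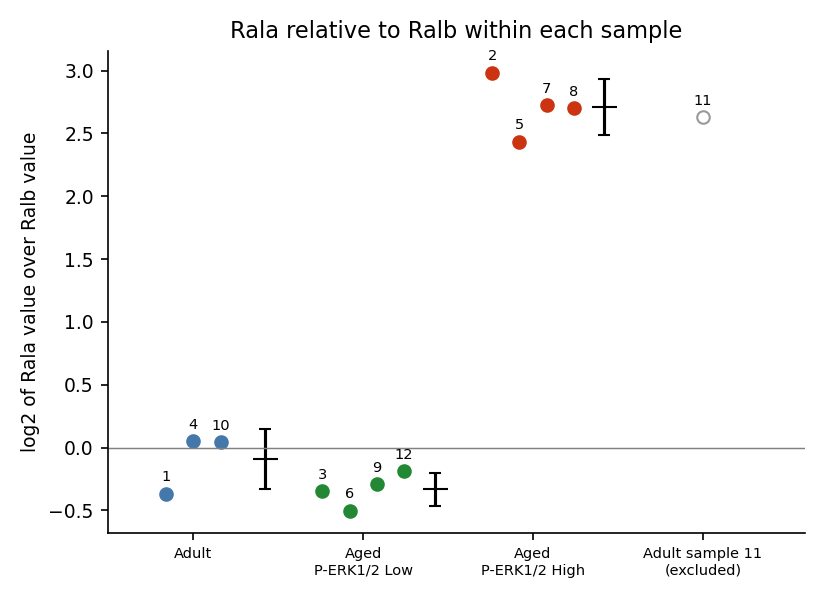
Log2 of the *Rala* value over the *Ralb* value in each sample, with sample numbers at the points and group mean ± SD in black. The P-ERK1/2 High samples lie between 2.43 and 2.98, those of the other groups between -0.50 and 0.05, and adult sample 11 (open circle) at 2.63.

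Sample 11 went against its adult label in *Rala*, in the ratio and in total counts, and whether it was mislabelled was not tested. It had a higher normalized *Rala* value than any P-ERK1/2 High sample, at 3175.54 from 4094 counts. As a share of panel counts, sample 11 held 28.0 of each 10000 as *Rala*, within the P-ERK1/2 High range of 24.7 to 28.6. Its *Ralb* value was 512.71, and its log2 ratio of 2.63 lay within the P-ERK1/2 High range. With it among the adult samples, the ratio differed by 2.12 between P-ERK1/2 High and adult and by -0.92 between P-ERK1/2 Low and adult.

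Genes around Ral on the panel were described by counts from the same fit. Of 5 Ral pathway partners, 1 was called higher and 0 lower between the aged groups by limma, where 28.2% and 9.61% of all genes were, with a median log2 fold change of -0.00 beside 0.26 for all genes. The number called was 3 with the same total, 4 unscaled, 5 with the positive controls and 2 without P-ERK1/2 High sample 2 or 7. *Rgl1*, an exchange factor that activates Ral below Ras, had 118 ± 41.0 (SD, n = 4) for P-ERK1/2 High against 116 ± 33.3 (SD, n = 4) for P-ERK1/2 Low, and was not called as deposited. *Pld1*, a phospholipase D that binds RalA, rose by 1.80 on the log2 scale (SE 0.35, limma adjusted p = 0.0013), and since no P-ERK1/2 Low sample exceeded background, the background of that group gives a rise of at least 1.27-fold. *Becn1*, which encodes Beclin 1, was at 0.90 (SE 0.24), short of the fold limit, which it passed without P-ERK1/2 High sample 2 (1.01) or 7 (1.02). *Ulk1*, the kinase that starts autophagy, was not called at -0.45, and ran from -1.47 with the same total to 1.51 with the positive controls. *Ikbke*, a kinase related to TBK1, was above background in 1 of 4 P-ERK1/2 Low and 1 of 3 adult samples and was not called in any of the 3 comparisons as deposited, although it was between the aged groups under 3 of 7 other scalings. In P-ERK1/2 High against adult, *Pld1* (1.71, above background in 1 of 3 adult samples) and *Becn1* (1.10) were called higher and *Ulk1* (-1.35) lower, where 29.2% and 7.66% of all genes were, and *Becn1* turned to -0.32 when samples were brought to the same total. These 3 calls fell to 1 in the plain test and 0 with sample 11. These calls of *Becn1* and *Ulk1* were lost without adult sample 1 (1.01) and adult sample 4 (-1.23), respectively, and that of *Becn1* also without P-ERK1/2 High sample 5 (0.94). Between P-ERK1/2 Low and adult, limma called 0 of the 5 (2 at an unadjusted p under 0.05, and 0 by voom or the plain test), where 10.8% of all genes were called, and 2 were called unscaled. *Ulk1* was at -0.89 (limma adjusted p = 0.0051) and was called under 6 of 7 other scalings, to -1.73 unscaled.

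Of the 5 other small GTPases of the panel, limma called 0 in each of the 3 comparisons, where 37.8%, 10.8% and 36.9% of all genes were called. Between 2 and 3 of the 5 had an unadjusted p under 0.05 in each, limma's voom and the plain test also called 0, and up to 4 were called between the aged groups under other scalings. *Rac1*, which drives actin at the membrane, had a log2 fold change of 0.45 between the aged groups, and *Rab7* of late endosomes -0.40. The hematopoietic relative *Rac2* and *Rab6b* of Golgi traffic were above background in 2 and 1 of the 4 P-ERK1/2 Low samples. *Rhoa*, which controls contractile actin, was the nearest to a call, at 1416 ± 181 (SD, n = 4) against 2752 ± 200 (SD, n = 4), or -0.96 in log2 units (SE 0.20, limma adjusted p = 0.0020), which turned to 1.03 with scaling by the positive controls and was called without P-ERK1/2 High sample 2 (-1.04) or P-ERK1/2 Low sample 9 (-1.01). The median of the 5 was -0.13 beside 0.26 for all genes. Between P-ERK1/2 Low and adult, 1 of the 5, *Rac2*, was called without P-ERK1/2 Low sample 3, and it was above background in 1 of 3 adult samples.

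Of 10 regulators of small GTPases, exchange factors and GTPase-activating proteins, 3 rose and 1 fell past the call between the aged groups, with a median of 0.12, where 28.2% and 9.61% of all genes were called. The 4 called became 7 with the same total, where only *Arhgap24* and *Dock1* were higher (371 of all genes called). They became 8 unscaled (596) and 9 with the positive controls, all higher (659). *Arhgap24*, which inactivates Rac, rose by 3.68 (SE 0.32), *Dock1*, a Rac exchange factor used in engulfment, by 2.30 (SE 0.23) and *Tbc1d4*, which acts on Rab proteins, by 1.58 (SE 0.24). *Arhgap24* was above background in 1 of 4 P-ERK1/2 Low samples and *Tbc1d4* in none, so that background gives no bound above 1-fold for it. *Vav1*, an exchange factor of hematopoietic cells, fell by 1.25 on the log2 scale as deposited (SE 0.31), its sign turned to 0.73 with scaling by the positive controls, and its call was lost without P-ERK1/2 High sample 5 (-0.93). The same 3 genes were called higher and *Vav1* lower (-1.33) against adult, where 29.2% and 7.66% of all genes were. The number called there was 8 with the same total, where only *Arhgap24* and *Dock1* were higher, and 1 with sample 11. *Tbc1d4* was above background in no adult sample, which gives a rise of at least 1.27-fold, and turned to -0.06 with the same total, and *Vav1* lost its call without adult sample 10 (-1.23). In P-ERK1/2 Low against adult, limma called 0 of 10, with 2 at an unadjusted p under 0.05, 0 by voom or the plain test and 4 unscaled, where 10.8% of all genes were called.

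Of 4 genes of the ERK cascade, 2 were called higher and 0 lower between the aged groups, where 28.2% and 9.61% of all genes were. The count was 0 in the plain test and under quantile normalization. It was 1 with median of ratios or a pseudocount of 20, and 4 unscaled or with the positive controls. With the same total it was 1, *Map2k1* as lower (-1.15). Without P-ERK1/2 High sample 5 or 7, or P-ERK1/2 Low sample 3 or 9, it was also 1. *Dusp7*, a phosphatase of ERK, stood at 1216 ± 427 (SD, n = 4), 399 ± 44.6 (SD, n = 4) and 165 ± 9.10 (SD, n = 3) in P-ERK1/2 High, P-ERK1/2 Low and adult microglia, and was called higher in each of the 3 comparisons as deposited (1.53, 1.26 and 2.79), where 28.2%, 8.05% and 29.2% of all genes were. Its call between the aged groups held under 5 of 7 other scalings (0.5 with the same total). Its call for P-ERK1/2 Low against adult held under 4 of 7 (0.41 unscaled), and both calls against adult were lost with sample 11. The adaptor *Grap* was called between the aged groups (1.07), although their ranges overlapped, and lost the call without P-ERK1/2 High sample 5 (1.00) or 7 (0.86) or without P-ERK1/2 Low sample 3 (0.92) or 9 (1.05). The kinases *Braf* (0.24) and *Map2k1* (-0.12), which carry the signal from Ras to ERK1/2, were not called as deposited. Among 10 genes of autophagosome formation, 4 were called higher and 0 lower, namely *Atg3* (2.38), *Map1lc3a* (1.71), *Atg5* (1.58) and *Atg9a* (1.54), with a median of 0.94, where 28.2% of all genes were called higher. All 10 were called unscaled (596 of all genes called) or with the positive controls (659). With the 6 most stable housekeeping genes 7 were called (365), and 6 without P-ERK1/2 High sample 2 (310). The number was 3 in the plain test (189) and 3 with the same total (371). With the same total, *Atg5* (0.56), *Atg9a* (0.52) and *Map1lc3a* (0.68) fell short of the fold limit. The study had picked some of the 10 genes on the same samples, so their count is not independent evidence. Against adult, 5 of the 10 were called higher and 1, *Ulk1*, lower, where 29.2% and 7.66% of all genes were, and 0 were called with sample 11. Between P-ERK1/2 Low and adult, 0 were called higher and 1 lower, where 8.05% and 2.73% of all genes were, and 3 were called unscaled. The 1 was *Atg14* (-1.15, and -0.99 and not called without P-ERK1/2 Low sample 12), which no P-ERK1/2 Low sample held above background and which was at least 1.2-fold lower by that background.

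**Figure D5:**
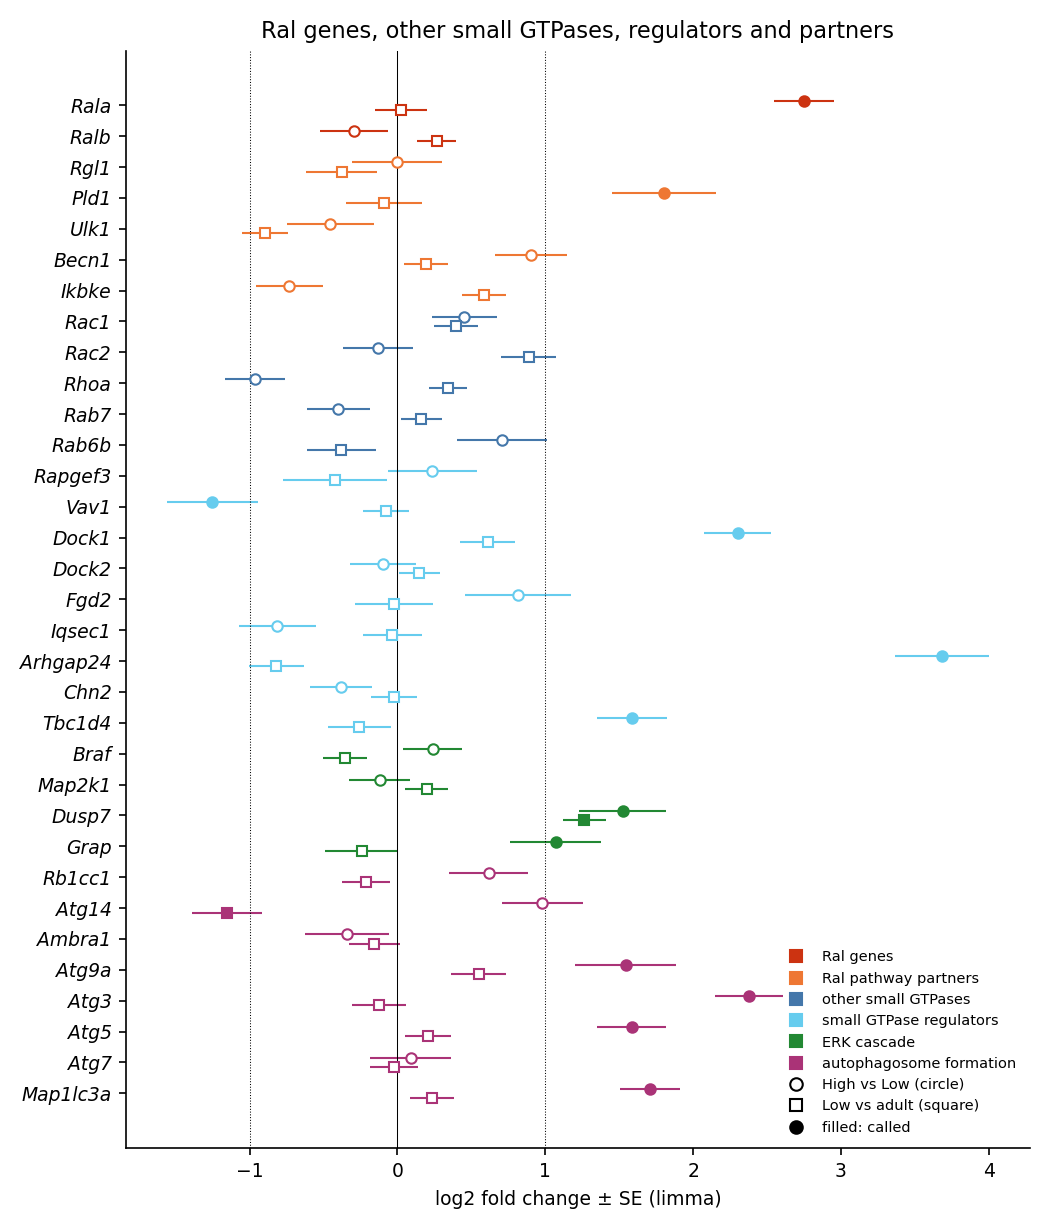
Log2 fold change ± SE from limma for *Rala*, *Ralb* and the genes of 5 lists, for the aged groups (circles) and P-ERK1/2 Low against adult (squares), filled where called, with dotted lines at 1 and -1. *Rala* is filled in the first comparison, and *Ralb* and all 5 other small GTPases are open in both.

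Among 567 genes with a mean value of at least 50, those whose centred log2 profiles over the 11 samples came nearest to that of *Rala* were the lysosomal membrane gene *Lamp1* (root mean square difference 0.22), the membrane and actin linker *Msn* (0.24), the matrix gene *Npnt* (0.25), the DNA repair gene *Brca1* (0.26) and the kinase *Akt1* (0.26). The study had singled out *Lamp1* and *Akt1* on these samples too. *Brca1* passed the limit of 50 through P-ERK1/2 High alone, with a mean of 339 there against 48.6 for P-ERK1/2 Low and 40.4 for adult. Only 1 of 3 adult samples, and none of the P-ERK1/2 Low samples, held it above background. Its likeness to *Rala* over these samples thus rests mostly on background. *Ralb* came 360th by this measure, at 1.43. Nearest to *Ralb* were *Mvp*, which encodes the major vault protein (0.12), the exchange factor *Dock2* (0.13), the lysosomal protease *Ctss* (0.14), the methyl-DNA binding gene *Mbd2* (0.15) and the receptor gene *Igf2r* (0.16), and *Rala* came 544th. These distances describe the 11 samples, which share their scaling, and were not tested.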

How the data were processed

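RNA of sorted microglia was hybridized to the nCounter Neuroinflammation panel, with 1 probe per gene. The authors normalized the counts in nSolver (version not given in the sources used here) and deposited a signal value per gene and sample. The values carry no background subtraction, and the geometric mean of the 13 housekeeping genes is equal across samples. Division by 1 factor per sample returned counts, whole to within 0.1 for 100% of the gene values in 11 samples. The 6 positive and 8 negative controls are listed as raw counts. All 12 columns were mapped by the sample identifiers that head them, and 0 were left over. Of the 770 gene names, 763 matched a RefSeq symbol and 7 a synonym.

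The log2(value + 1) of all 770 genes was fitted for each pair of groups with limma (version 3.58.1, R 4.3.3), unfiltered and without covariates. Calls needed an unadjusted p below 0.01 together with a change of more than 1 log2 unit. Benjamini-Hochberg adjustment ran over the 770 genes. Changes of low genes can come out too small on this scale, or shifted by the background. Normalized background spanned 69.23 to 116.9 across the P-ERK1/2 Low samples, above the 26.06 to 39.5 of the P-ERK1/2 High samples. A gene at background in both aged groups would thus read as lower for P-ERK1/2 High. The log2 ratio of *Rala* to *Ralb* was tested by exact two-sided permutation of the samples. Sample 11 entered only as an alternative, where 16 of its values are listed at 1. The script was tested on simulated data. The genes, lists and tests were chosen with earlier results of these data known. Named genes are the Ral genes, members of the lists, and the 5 genes nearest in profile to each Ral gene. Promoter sequences are RefSeq's. Probe sequences were not used here, so reading of one Ral gene's RNA by the other's probe was not examined.

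Alternative settings took a pseudocount of 0.1 or 20, genes with a mean of 50 or more, other scalings (median of ratios, the 6 most stable housekeeping genes, quantile, same total, none), a variance fitted on the 3 groups together, a plain unequal-variance test, an adjusted p under 0.05 (with or without the fold limit), sample 11 as adult, and each sample left out. Scaling by positive controls, subtraction of background and limma's voom were added after seeing the data.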

Additional observations from a re-analysis of the deposited data

Results flagged for a closer look

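In P-ERK1/2 Low, *Rala* in sample 12 (410.22) stood apart from the other 3 samples (335.44 to 345.1). Among genes named beside the Ral genes, *Mvp* was at 519.63 in P-ERK1/2 High sample 5 against 317.79 to 344.62 in the others, and *Rab6b* at 108.68 in P-ERK1/2 Low sample 6 against 57.43 to 64.2. Each was the highest value of its group, by a gap over range above Dixon's 95% limit, which 3 of 86 groups of samples passed, and chance passes about 1 in 20. Adult sample 11, which belongs to no comparison, had values above those of the adult samples in the groups: *Rala* 3176 against 281.34 to 415.09, *Ralb* 512.7 against 358.67 to 402.74, and a log2 ratio of 2.628 against -0.37 to 0.05.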

How the results depend on the processing

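No paired analysis was possible because the groups share no sample numbers, and whether the aged groups share mice is not in the labels. The planned count-model tests were not run, and voom on the recovered counts was used in their place. *Rala* remained called between the aged groups, P-ERK1/2 High against P-ERK1/2 Low, under all 15 alternatives (1.72 to 4.73) and without any 1 sample (2.69 to 2.82). Against adult it ranged over 1.36 to 3.94, with 2.61 to 2.89 when 1 sample was left out, and lost its call only with sample 11 (1.98). *Ralb* between the aged groups turned to 0.48 (6 housekeeping genes), 1.38 (unscaled, called higher) and 1.69 (positive controls, called higher), was called lower at -1.32 with the same total, and ranged over -0.45 to -0.18 without 1 sample. Against adult it turned to 0.68, 0.79 and 1.14 under those 3 scalings and was called at -1.44 with the same total, with -0.18 to 0.083 without 1 sample. Between P-ERK1/2 Low and adult, *Ralb* turned to -0.12 (same total), -0.58 (unscaled) and -0.55 (positive controls), with 0.23 to 0.32 without 1 sample. *Rala* there turned to -0.10 (median of ratios), -0.034 (6 housekeeping genes), -0.24 (quantile), -0.36 (same total), -0.82 (unscaled), -0.79 (positive controls), -0.028 (background subtracted) and -0.77 (sample 11), with -0.14 to 0.14 without 1 sample. The ratio of *Rala* to *Ralb* between the aged groups ranged over 2.95 to 3.13 without 1 sample, at exact permutation p = 0.0571, the smallest that 3 against 4 allow. The cause of these turns was not tested.

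Called genes between the aged groups numbered 291, and 596 unscaled, 659 with positive controls, 189 in the plain test and 235 to 310 without 1 sample. For P-ERK1/2 Low against adult they numbered 83, and 240, 226 and 54 in the same settings, 201 by adjusted p without the fold limit, 34 with sample 11 and 75 to 95 without 1 sample. Between P-ERK1/2 High and adult they numbered 284, and 173 in the plain test, 49 with sample 11 and 225 to 303 without 1 sample. Counts of about 100 for *Rala* in each P-ERK1/2 Low sample limit the precision there.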
